A study of Mus musculus with 9 samples.

Results

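The circadian clock genes examined here were Per1, Per2, Per3, Cry1, Cry2, Nr1d1, Nr1d2, Dbp, Tef and Clock, 10 of the 24421 genes in the count table. They were chosen by name, with earlier results of these data known. All 10 passed the filter on low counts, which 12575 of the 24421 genes passed. The data were 9 RNA-seq libraries made from 4T1 cells, a mouse triple-negative mammary carcinoma line, with 3 libraries in each of 3 conditions. The first condition was 3D spheroid culture on soft agar in RPMI medium with 10% FBS and vehicle, the second was the same 3D culture with 75 µM extra palmitate, a saturated fatty acid given bound to albumin, and the third was 2D monolayer culture with 75 µM extra palmitate. All cultures carried serum fatty acids and were kept for 5 days. A 2D culture without extra palmitate was not analysed here, and the 3D libraries with extra palmitate enter both comparisons.

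The mammalian clock is a loop of transcription and protein turnover. CLOCK pairs with BMAL1 (gene Arntl) and binds E-box sequences of its targets, among them the Per and Cry genes, whose proteins build up, return to the nucleus and repress CLOCK and BMAL1. The same activators drive the REV-ERB receptors (Nr1d1 and Nr1d2), which repress Arntl, and the PAR bZIP factors (Dbp, Tef and Hlf), which bind D-box sequences of output genes. In cultured cells the loops of single cells drift apart unless a serum change or another cue aligns them. The hour of collection and the last change of medium before it were not given in the sources used here, and each culture was sampled once, so a shift in phase and a change in mean level cannot be told apart in any result below.

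Total counts per library lay between 6595514 and 31177756 with a median of 18567021, and the smallest library was replicate 3 of 3D culture with extra palmitate. Nothing in the labels says whether the replicates were separate cultures, so the p-values measure the spread between these libraries, which may be technical. The 5 epithelial markers Epcam, Krt8, Krt18, Krt7 and Cdh1 summed to between 3788 and 5019 CPM (counts scaled to a common library size) in every library, and endothelial and adipocyte markers summed to at most 0.579 and 0.108 CPM. Of the leukocyte markers Cd68 alone passed the filter, and of the fibroblast markers Pdgfra alone, with Ptprc at 11 counts or fewer. Libraries of 3D culture with extra palmitate also differed from each other by base composition. Relative to the mean of that condition, the median log2 level of the genes richest in GC (over 54.6%) minus that of the genes poorest in GC (under 44.9%) was 0.27 in replicate 1, 0.02 in replicate 2 and −0.28 in replicate 3, against −0.05 to 0.09 in the other 6 libraries.

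The loop acts on these genes through short sequences, and the stretches that hold them near the starts of the members are shown because they are the letters that CLOCK, BMAL1 and the PAR bZIP factors bind. In the 250 bases before each start in the RefSeq promoter table (GRCm38.p6), 9 of the 10 members matched an entry, with 13 promoters in all, and Per2 had none. Both strands were searched for the E-box CACGTG, the E′-box CACGTT, the D-boxes TTATGTAA and TTACGTAA, the core TAGGTCA of the ROR and REV-ERB element, the cAMP response element TGACGTCA and its shorter core TGACG. The longer cAMP motif holds the shorter core. Each sequence is written 5′ to 3′ on the strand of its gene, with the motif in capitals, and AACGTG is the E′-box read on the other strand.
Per1, chr11:69098771-69098800, + strand: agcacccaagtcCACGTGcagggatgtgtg
Cry1, chr10:85185097-85185145, − strand: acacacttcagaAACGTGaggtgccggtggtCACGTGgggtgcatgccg
Cry2, chr2:92434218-92434247, − strand: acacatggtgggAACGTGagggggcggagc
Nr1d1, chr11:98775388-98775417, − strand: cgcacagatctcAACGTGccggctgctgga
Tef, chr15:81811264-81811293, + strand: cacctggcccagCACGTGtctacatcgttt
Per3, chr4:151044804-151044882, − strand: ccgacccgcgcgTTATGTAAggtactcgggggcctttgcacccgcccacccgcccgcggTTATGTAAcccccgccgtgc

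In the GENCODE M21 annotation of GRCm38 the Cry1, Cry2 and Nr1d1 stretches lay outside annotated genes, upstream of their own gene. The Per1 stretch and the Tef stretch shown lay in introns of Per1 and Tef, whose annotated spans begin further upstream, and the Per3 stretch lay in an intron of Camta1. The E-box stood before Per1, Cry1 and both starts of Tef, of which the stretch before the upstream start lies in exons of Tef (in a UTR) and of Gm17597 and is not shown, and 6.02% of all 32851 promoters in the table held it. The E′-box stood before Cry1, Cry2 and Nr1d1, and 3.85% of all promoters held it. The D-box TTATGTAA, present in 0.819% of all promoters, occurred 2 times before Per3, at 205 to 198 and at 158 to 151 bases before the start. TTACGTAA, TAGGTCA and TGACGTCA, held by 0.113%, 2.23% and 1.55% of all promoters, were in none of the members' windows, and TGACG, held by 17.8%, stood before Per1, Cry1 and Cry2. None of the 7 letter strings was in the windows of Nr1d2, Dbp or Clock. A match is a description of letters and not a bound site.

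**Figure D1:**
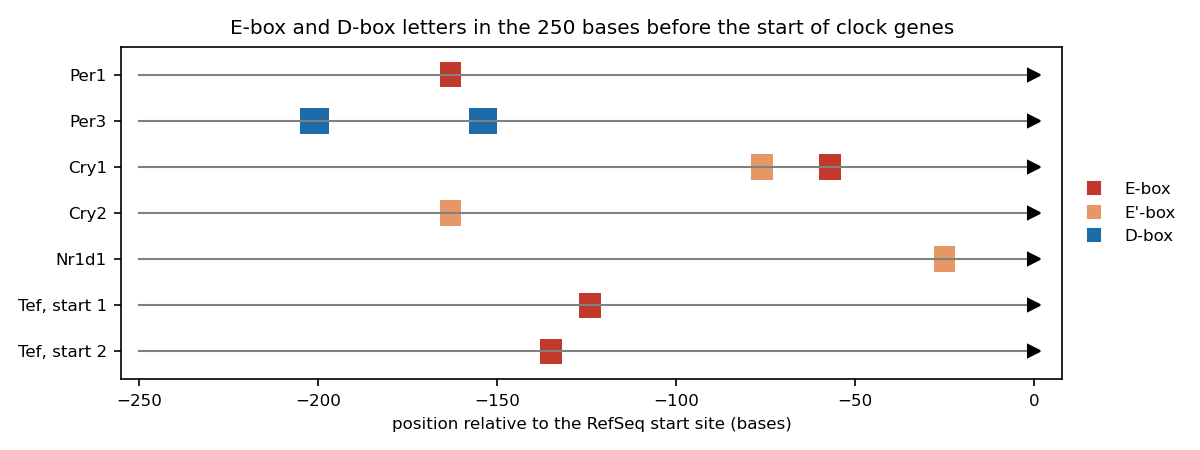
Position of the E-box, E′-box and D-box letters in the 250 bases before RefSeq starts of 6 clock genes, with distance from the start in bases on the horizontal axis, 1 row for each start and the arrowhead at the start. A D-box of Per3 lies furthest from the start, at 205 to 198 bases before it, and the E′-box of Nr1d1 lies nearest, at 28 to 23 bases.

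Corrected for exonic length, Nr1d2 was the most abundant of the members and Dbp the least in all 3 conditions. Averaged over the 9 libraries, Nr1d2 reached 15.9 CPM per kb of exon, at the 71.4th percentile of the 12125 genes tested that had a length. Clock and Nr1d1 followed at 8.37 and 8.33 CPM per kb, then Cry1 at 6.74, Tef at 5.01, Per1 at 4.05, Per3 at 2.36, Cry2 at 2.05, Per2 at 1.75 and Dbp at 0.986 CPM per kb. The order between them changed with condition, as in 2D culture with extra palmitate Nr1d1 at 8.98 and Cry1 at 8.55 CPM per kb stood above Clock at 5.63, and Cry2 at 2.50 above Per3 at 1.37, whereas in 3D culture Per3 at 3.30 and Per2 at 2.33 CPM per kb stood above Cry2 at 1.90. The members thus spread from the 15.4th percentile, that of Dbp, to the 71.4th, among genes that had already passed the filter on low counts. The raw counts behind the levels ran from 17 to 115 reads for Dbp, from 56 to 316 for Per2 and from 976 to 2963 for Clock.

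The period genes Per1, Per2 and Per3 encode the PER proteins, which carry the CRY proteins into the repressing complex, and they did not move together. Between 3D and 2D culture, both with extra palmitate, Per2 and Per3 were higher in 3D and Per1 was lower in 3D. With extra palmitate in 3D culture, Per3 was lower than without it, Per2 had a lower mean that missed the threshold, and Per1 had nearly the same mean. Levels from here on are CPM scaled by TMM, the trimmed mean of M-values, and fold changes, adjusted p-values and standard errors (SE) come from edgeR's quasi-likelihood test over all 12575 genes.

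Per3 (chromosome 4, 151003652 to 151044665, − strand), the member with the pair of D-boxes shown above, had the largest change between culture forms of all members. Its levels were 33.7, 30.8 and 30.5 CPM in 3D culture, 25.2, 23.5 and 21.1 CPM in 3D culture with extra palmitate, and 13.2, 14.2 and 12.0 CPM in 2D culture with extra palmitate. All 9 libraries were ordered by condition, with no overlap at either step, and the 3D mean was 2.41 times the 2D mean. Against 2D, 3D culture with extra palmitate was higher by 0.84 on the log2 scale (SE 0.0957, edgeR adjusted p = 2.14e-06), 23.3 ± 2.06 against 13.1 ± 1.10 CPM (mean ± SD, n = 3 each). Against 3D without it, extra palmitate gave a log2 fold change of −0.42 (SE 0.0898, edgeR adjusted p = 0.0274), from 31.7 ± 1.74 CPM. The 3D against 2D value was 0.51 (edgeR adjusted p = 3.19e-05) once trends with GC content and transcript length were removed from each library. That fit also moved genes at large. In it 72.1% of all genes tested were called between 3D and 2D and 42.3% of the calls were higher, against 68.3% and 50.4% in the main fit. The palmitate call was lost when any 1 of the 3 libraries of 3D culture lacking palmitate was left out, without replicate 2 of 3D culture with palmitate, and when 2D was left out of the fit (edgeR adjusted p between 0.0644 and 0.131), with log2 fold changes between −0.45 and −0.38 there.

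Per2 (chromosome 1, 91415982 to 91459324, − strand) fell in the same order. It stood at 14.9, 13.3 and 12.7 CPM in 3D culture, at 11.6, 10.1 and 8.58 CPM in 3D culture with extra palmitate, and at 5.87, 7.53 and 7.53 CPM in 2D culture with extra palmitate. None of the 3 conditions overlapped, although replicate 3 of 3D culture with palmitate, the shallowest library, lay close to 2D. The 3D against 2D difference was 0.55 on the log2 scale (SE 0.132, edgeR adjusted p = 0.00185), and it was 0.22 and no longer called after removal of the GC and length trend (edgeR adjusted p = 0.112). The palmitate difference of −0.39 (95% confidence interval −0.66 to −0.12) did not pass the threshold (edgeR adjusted p = 0.121), but passed it in 2 of 17 other fits.

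Per1 (chromosome 11, 69095217 to 69109960, + strand), which also responds to stress and cAMP signals, went the other way between culture forms. It measured 20.2, 23.3 and 20.2 CPM in 3D culture, 23.5, 18.6 and 19.9 CPM in 3D culture with extra palmitate, and 23.2, 28.3 and 28.2 CPM in 2D culture with extra palmitate. Replicate 1 of the palmitate-treated 3D cultures and replicate 1 of the 2D cultures met at 23.5 and 23.2 CPM, so these groups overlapped. The 3D against 2D fold change was nevertheless called at −0.35 (SE 0.108, edgeR adjusted p = 0.00905), and it was −0.60 after removal of the GC and length trend. Leaving out replicate 2 of 3D culture with palmitate gave −0.28 and ended the call (edgeR adjusted p = 0.0593). The palmitate difference in 3D was −0.01 with a 95% confidence interval of −0.25 to 0.23.

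The cryptochromes Cry1 and Cry2, the main repressors of CLOCK and BMAL1, were both lower in 3D than in 2D culture with extra palmitate. Cry1 (chromosome 10, 85131700 to 85185064, − strand) read 17.3, 17.6 and 18.9 CPM in 3D culture, 22.4, 20.3 and 20.5 CPM in 3D culture with extra palmitate, and 29.9, 28.4 and 27.3 CPM in 2D culture with extra palmitate. Its libraries followed the reverse of the Per2 and Per3 order with no overlap at either step. Between 3D and 2D the fold change was −0.42 on the log2 scale (SE 0.0806, edgeR adjusted p = 0.000306). The palmitate difference was 0.25 (95% confidence interval 0.07 to 0.43) and was not called (edgeR adjusted p = 0.146), although the groups did not overlap.

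Cry2 (chromosome 2, 92403646 to 92434043, − strand) separated 2D culture from both 3D conditions. It gave 11.6, 12.7 and 11.7 CPM in 3D culture, 12.4, 10.3 and 10.7 CPM in 3D culture with extra palmitate, and 16.4, 15.2 and 15.8 CPM in 2D culture with extra palmitate. Cry2 had a log2 fold change of −0.47 between 3D and 2D (SE 0.0989, edgeR adjusted p = 0.000634). The 3D groups overlapped, with a palmitate difference of −0.08 (95% confidence interval −0.30 to 0.14). Exons of Cry2 share 295 bases, 4.67% of its length, with D930015M05Rik on the opposite strand, which had 2 to 20 counts per library.

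**Figure D2:**
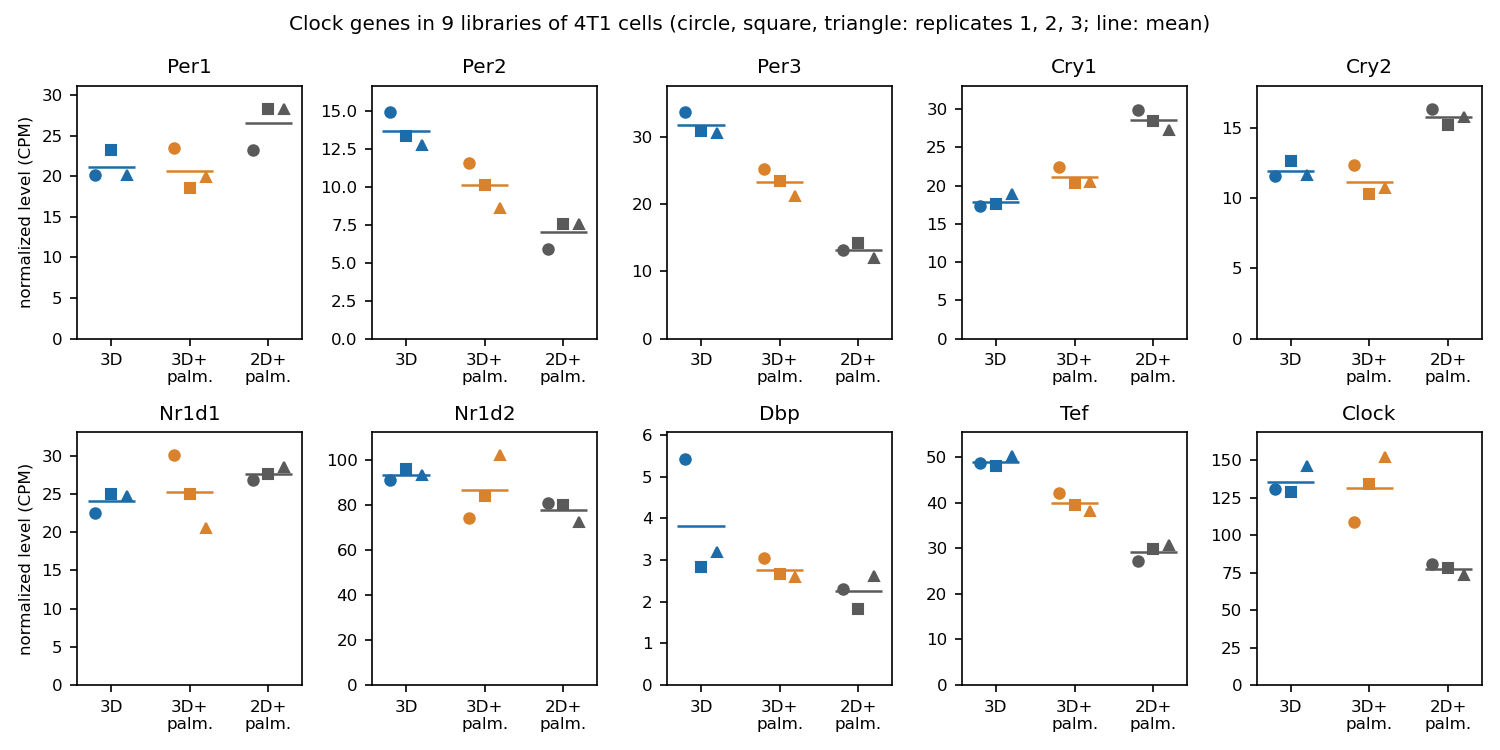
TMM-scaled CPM of the 10 clock genes (vertical axes from 0) in 3D culture, 3D culture with extra palmitate and 2D culture with extra palmitate, with circles, squares and triangles for replicates 1, 2 and 3 and a line at the mean of each condition (n = 3). Per2, Per3 and Tef fall and Cry1 rises over the 3 conditions without overlap, while Nr1d1, Nr1d2 and Clock spread most among the 3D libraries with extra palmitate.

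The REV-ERB receptors Nr1d1 and Nr1d2, which sense heme and repress Arntl, passed the threshold in neither comparison. Nr1d1 (chromosome 11, 98767932 to 98775333, − strand) stood at 22.5, 24.9 and 24.7 CPM in 3D culture, at 30.1, 25.0 and 20.5 CPM in 3D culture with extra palmitate, and at 26.8, 27.6 and 28.5 CPM in 2D culture with extra palmitate. The 3D libraries with palmitate spanned the range of both other conditions. The log2 fold changes were −0.09 between 3D and 2D (95% confidence interval −0.31 to 0.14) and 0.12 with palmitate in 3D (−0.11 to 0.35). Nr1d1 shares 263 exonic bases, 8.55% of its length, with Thra, the thyroid hormone receptor alpha gene on the opposite strand. The kit kept strand but the strand setting of the counting was not given in the sources used here, so reads of that stretch cannot be told apart. Thra had log2 fold changes of 0.17 and −0.25 in these comparisons, neither called (edgeR adjusted p = 0.104 and 0.150).

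Nr1d2 (chromosome 14, 18204054 to 18239127, − strand) measured 91.1, 96.0 and 93.3 CPM in 3D culture, 74.2, 84.3 and 102.6 CPM in 3D culture with extra palmitate, and 81.2, 79.9 and 72.8 CPM in 2D culture with extra palmitate. Replicate 3 of 3D culture with palmitate was the highest of all 9 libraries and replicate 1 among the lowest, the reverse of Nr1d1 in the same libraries. Its log2 fold changes were 0.14 (95% confidence interval −0.06 to 0.34) between 3D and 2D and −0.12 (−0.32 to 0.08) with palmitate. The transcript of Nr1d2 was 41.8% GC (the 11.4th percentile of genes tested) and that of Nr1d1 56.8% GC (the 85.5th). Without replicate 1 of 3D culture with palmitate both receptors were called between 3D and 2D, Nr1d1 at −0.26 (edgeR adjusted p = 0.0297) and Nr1d2 at 0.25 (edgeR adjusted p = 0.0124). Without replicate 3 of that condition Nr1d2 was called in the palmitate comparison at −0.25 (edgeR adjusted p = 0.0260).

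Of the PAR bZIP factors, which bind D-boxes, Tef changed between culture forms and Dbp passed the threshold in neither comparison. Tef (chromosome 15, 81802421 to 81826863, + strand) read 48.7, 48.1 and 50.2 CPM in 3D culture, 42.2, 39.6 and 38.1 CPM in 3D culture with extra palmitate, and 27.1, 30.0 and 30.7 CPM in 2D culture with extra palmitate. Like Per2 and Per3, it fell over the 3 conditions with no overlap at either step. Between 3D and 2D the fold change was 0.45 on the log2 scale (SE 0.0723, edgeR adjusted p = 6.19e-05), and 0.25 after removal of the GC and length trend (edgeR adjusted p = 0.00131). The palmitate difference of −0.28 (SE 0.0705) lay just outside the threshold (edgeR adjusted p = 0.0526) and passed it in 6 of 17 other fits. Tef shares 193 exonic bases, 2.45% of its length, with Gm17597 on the opposite strand.

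Dbp (chromosome 7, 45705088 to 45710203, + strand), usually among the most strongly cycling transcripts of liver, had only 17 to 115 reads per library. It gave 5.43, 2.84 and 3.20 CPM in 3D culture, 3.05, 2.66 and 2.60 CPM in 3D culture with extra palmitate, and 2.32, 1.83 and 2.63 CPM in 2D culture with extra palmitate. Replicate 1 of 3D culture stood above all other libraries, and the groups overlapped in both comparisons. The intervals were wide, 0.36 (95% confidence interval −0.20 to 0.92) between 3D and 2D and −0.45 (−0.98 to 0.07) with palmitate, and neither was called (edgeR adjusted p = 0.231 and 0.360). Without replicate 1 of 3D culture the palmitate difference was −0.09. Dbp also shares 539 exonic bases, 18.0% of its length, with Sphk2 on the opposite strand, a sphingosine kinase gene with log2 fold changes of 0.11 and −0.01.

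Clock (chromosome 5, 76209868 to 76304792, − strand) encodes the activator itself and was higher in 3D than in 2D culture with extra palmitate. Its levels were 130.9, 129.2 and 146.1 CPM in 3D culture, 109.0, 134.4 and 152.2 CPM in 3D culture with extra palmitate, and 80.7, 78.1 and 73.2 CPM in 2D culture with extra palmitate. Every 3D library lay above every 2D library, and the 3D conditions overlapped fully. The 3D against 2D fold change was 0.76 on the log2 scale (SE 0.1001, edgeR adjusted p = 9.80e-06), 131.9 ± 21.7 against 77.3 ± 3.84 CPM. The transcript of Clock was 40.9% GC, the 8.4th percentile of genes tested, and after removal of the GC and length trend the fold change was 0.32 (edgeR adjusted p = 2.39e-05). The palmitate difference was −0.05 with a 95% confidence interval of −0.26 to 0.16. The measurement was made on bulk RNA, so for Clock as for the other genes fewer cells with the transcript and less of it per cell cannot be told apart.

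As a group the clock genes moved in both directions between culture forms. Between 3D and 2D culture with extra palmitate, 7 of the 10 members were called, against 68.3% of all genes tested, so the share of clock genes called was close to the background. Of these 7, Per2, Per3, Tef and Clock were higher in 3D (34.5% of all genes tested were higher) and Per1, Cry1 and Cry2 were lower (33.9% were lower). The groups did not overlap for 6 members, against 69.4% of all genes tested. The members' log2 fold changes ran from −0.47 to 0.84 with a median of 0.25, beside a median of 0.01 over all genes tested and a median size of 0.59 among all called genes. None of the 7 changed direction in 17 other fits. The members with an E-box in the stretches shown went both ways, Per1 and Cry1 lower and Tef higher in 3D. Other markers also moved between these groups. The 3 fibroblast markers summed to 91.7 to 110.4 CPM in 3D and 29.6 to 31.2 CPM in 2D culture with extra palmitate, all but a trace of it Pdgfra, with Lum at 0 and Dcn at 1 count or fewer. The 4 leukocyte markers summed to 8.58 to 11.4 CPM in 3D and 24.4 to 27.8 CPM in 2D, mostly Cd68, with Lyz2 at 1 count or fewer. Ptprc and Itgam, with at most 11 and 7 counts in any library, went the other way. Their means were 0.442 and 0.101 CPM in 3D and 0.0765 and 0.0214 CPM in 2D. The epithelial sum was 4802 to 5019 CPM in 3D and 3788 to 4097 CPM in 2D. Epcam, Krt8 and Krt18 were called higher in 3D, Krt7 was called lower at −0.51 (edgeR adjusted p = 1.27e-05) and Cdh1 was not called. The part of these markers in the clock gene differences was not tested.

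With extra palmitate in 3D culture, 1 of the 10 members was called, Per3, which was lower. Over all genes tested 2.19% were called, 1.38% higher and 0.811% lower, so that 62.9% of calls were higher, against 46.7% with scaling by library size alone. The count of members called was 0 to 3 with a library left out, 3 without replicate 3 of 3D culture with palmitate and 0 without replicate 2 or when any 1 of the 3D libraries lacking palmitate was left out. Over all genes tested 14.9% were called without replicate 3 of 3D culture with palmitate and 0.611% without replicate 2. Without 1 of the 3D libraries lacking palmitate 0.559% to 0.738% were called. The groups did not overlap for 4 members, Per2, Per3, Tef and Cry1, against 18.6% of all genes tested. The median log2 fold change was −0.10 over the members and 0.01 over all genes tested. The 4 members without overlap were also those whose 9 libraries were ordered by condition with no overlap in either step. Of all genes tested 10.5% shared that pattern. Per2, Per3 and Tef fell from 3D over 3D with extra palmitate to 2D with extra palmitate and Cry1 rose, so for these genes the mean of 3D culture with palmitate lay between the other means. Both comparisons contain the 3D libraries with extra palmitate, and the place of those libraries in the order was not tested independently of the differences above.

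**Figure D3:**
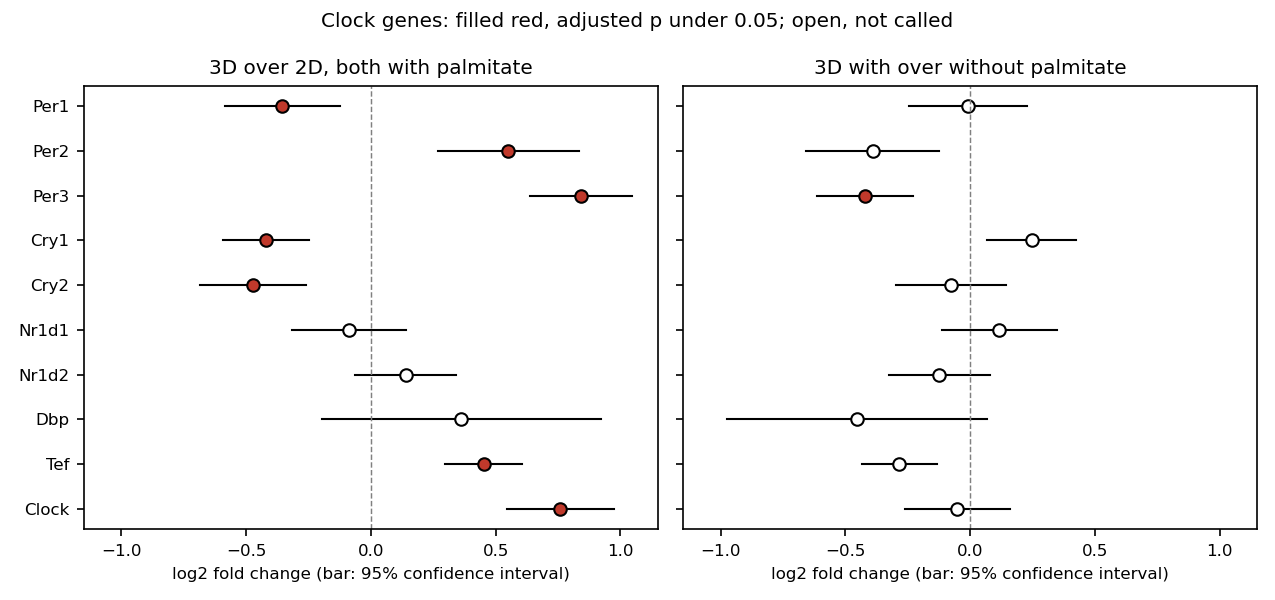
Log2 fold changes of the 10 clock genes from edgeR with 95% confidence intervals, for 3D over 2D culture with extra palmitate (left) and for 3D culture with over without extra palmitate (right), on a common log2 axis with filled points for an adjusted p under 0.05. On the left 7 genes were called, from −0.47 for Cry2 to 0.84 for Per3, and on the right Per3 alone was called, at −0.42.

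The spread among replicates was itself uneven. For 8 of the 10 members the coefficient of variation was largest in 3D culture with extra palmitate, with a median of 10.9% there against 5.49% in 3D culture and 6.17% in 2D culture. The exceptions were Dbp, whose spread was largest in 3D culture, and Tef, whose spread was largest in 2D culture. The same share was not computed over all genes. Libraries of 3D culture with extra palmitate also differed most from each other over all genes with enough reads. Their chi-square per gene was 16.4 to 19.7, against 3.90 to 9.30 within the other conditions, so the uneven spread was not particular to the clock genes. Nr1d1, Nr1d2 and Clock had the widest spread in 3D culture with extra palmitate, at 19.0%, 16.6% and 16.5%. Nr1d2 and Clock were the members poorest in GC, while Per1 and Dbp, the richest at 59.4% and 61.6% GC, spread by 12.2% and 8.88% there. The part of base composition in these spreads was not tested.

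The rest of the clock was followed in a list of 20 further genes, of which 16 passed the filter. Npas2, Rora, Rorb and Hlf did not pass, with at most 1, 2, 7 and 11 reads in any library. Between 3D and 2D culture with extra palmitate 15 of the 16 were called, against 68.3% of all genes tested, 8 higher and 7 lower in 3D, and the groups did not overlap for any of the 16, against 69.4% of all genes tested. Their median log2 fold change was 0.18. With extra palmitate in 3D culture 1 of the 16 was called, against 2.19% of all genes tested, and 0 were called in 8 of the 9 fits with a library left out, the exception being 3 without replicate 3 of 3D culture with palmitate. Over all genes tested 0.559% to 1.59% were called in those 8 fits and 14.9% in the exception.

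All 4 further repressors of the E-box and D-box arms were called between culture forms, against 68.3% of all genes tested. In 3D 3 were lower (33.9% of all genes tested were) and 1 was higher (34.5%). Ciart, which encodes the repressor CHRONO, stood at 3.83, 3.75 and 3.25 CPM in 3D culture, at 5.96, 4.79 and 5.21 CPM in 3D culture with extra palmitate, and at 15.7, 18.1 and 18.8 CPM in 2D culture with extra palmitate. It rose over the 3 conditions with no overlap, as Cry1 did, with a log2 fold change of −1.70 between 3D and 2D (SE 0.121, edgeR adjusted p = 1.63e-08), and 0.59 with palmitate that was not called (edgeR adjusted p = 0.0540). The paralogous E-box repressors Bhlhe40 (DEC1) and Bhlhe41 (DEC2) went in opposite directions. Bhlhe40 averaged 60.2 CPM in 3D and 126.6 CPM in 2D culture with extra palmitate (log2 fold change −1.08, edgeR adjusted p = 2.22e-09), and Bhlhe41 averaged 73.0 and 25.3 CPM (log2 fold change 1.52, edgeR adjusted p = 7.82e-11). Nfil3, the D-box repressor that opposes Dbp and Tef, was lower in 3D at −0.93 (edgeR adjusted p = 1.44e-07), where Tef was higher.

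Among the activators, Arntl, the partner of Clock, was lower in 3D than in 2D culture with extra palmitate at −0.28 (edgeR adjusted p = 0.0108), while Clock was higher. Its paralog Arntl2 was higher in 3D at 0.28 (edgeR adjusted p = 0.0140). Arntl2 was the only gene of this list called with palmitate, at −0.38 (edgeR adjusted p = 0.0426), with 48.4, 48.2 and 43.6 CPM in 3D culture against 32.0, 35.9 and 42.3 CPM with extra palmitate. The palmitate-treated libraries all lay below the untreated ones, replicate 3 by a narrow margin. The call was lost with only the conditions compared, with the replicate block and in most fits with a library left out.

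Genes for the turnover of PER and CRY proteins moved in both directions. The kinases Csnk1d, Csnk1a1 and Gsk3b were higher in 3D than in 2D culture with extra palmitate, at log2 fold changes of 0.29, 0.32 and 0.59, whereas the kinase Csnk1e was lower at −0.69. The F-box genes Btrc and Fbxw11, which target PER, were higher at 0.27 and 0.20, and Fbxl21 at 1.10 from only 3 to 36 reads per library. Timeless, a replication fork gene associated with the clock, was lower at −0.48. All 8 were called by edgeR, against 68.3% of all genes tested, with the largest adjusted p, 0.0171, for Fbxw11. None was called with palmitate, against 2.19% of all genes tested.

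Of 10 genes often described as clock outputs, 9 were called between 3D and 2D culture with extra palmitate, against 68.3% of all genes tested, 5 higher and 4 lower in 3D, with a median of 0.25. Nampt, the rate-limiting enzyme of NAD salvage, was lower in 3D at −1.12, the protease gene Usp2 at −0.81, the glucocorticoid-responsive Tsc22d3 at −0.52 and Dtx4 at −0.41. Por, which supplies electrons to P450 enzymes, was higher in 3D at 0.62, Tspan4 at 0.61, Klf10 at 0.52, Marveld1 at 0.46 and the mitotic kinase gene Wee1 at 0.43. With extra palmitate in 3D culture 2 of the 10 were called, both higher, against 2.19% of all genes tested. With a library left out the count was 0 when any 1 of the libraries lacking palmitate was removed or without replicate 2 of 3D culture with palmitate, and 5 without replicate 3 of that condition. Over all genes tested 0.559% to 0.738% were called in the fits with 0, and 14.9% in the fit with 5. Klf9, a glucocorticoid-responsive factor, gave 24.2, 22.4 and 24.5 CPM in 3D culture against 29.9, 30.5 and 34.0 CPM with extra palmitate (log2 fold change 0.39, edgeR adjusted p = 0.0231). Por rose from 136.0 to 166.7 CPM on average (log2 fold change 0.29, edgeR adjusted p = 0.0337). Several of these outputs answer to glucocorticoid or other signals as well as to the clock.

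**Figure D4:**
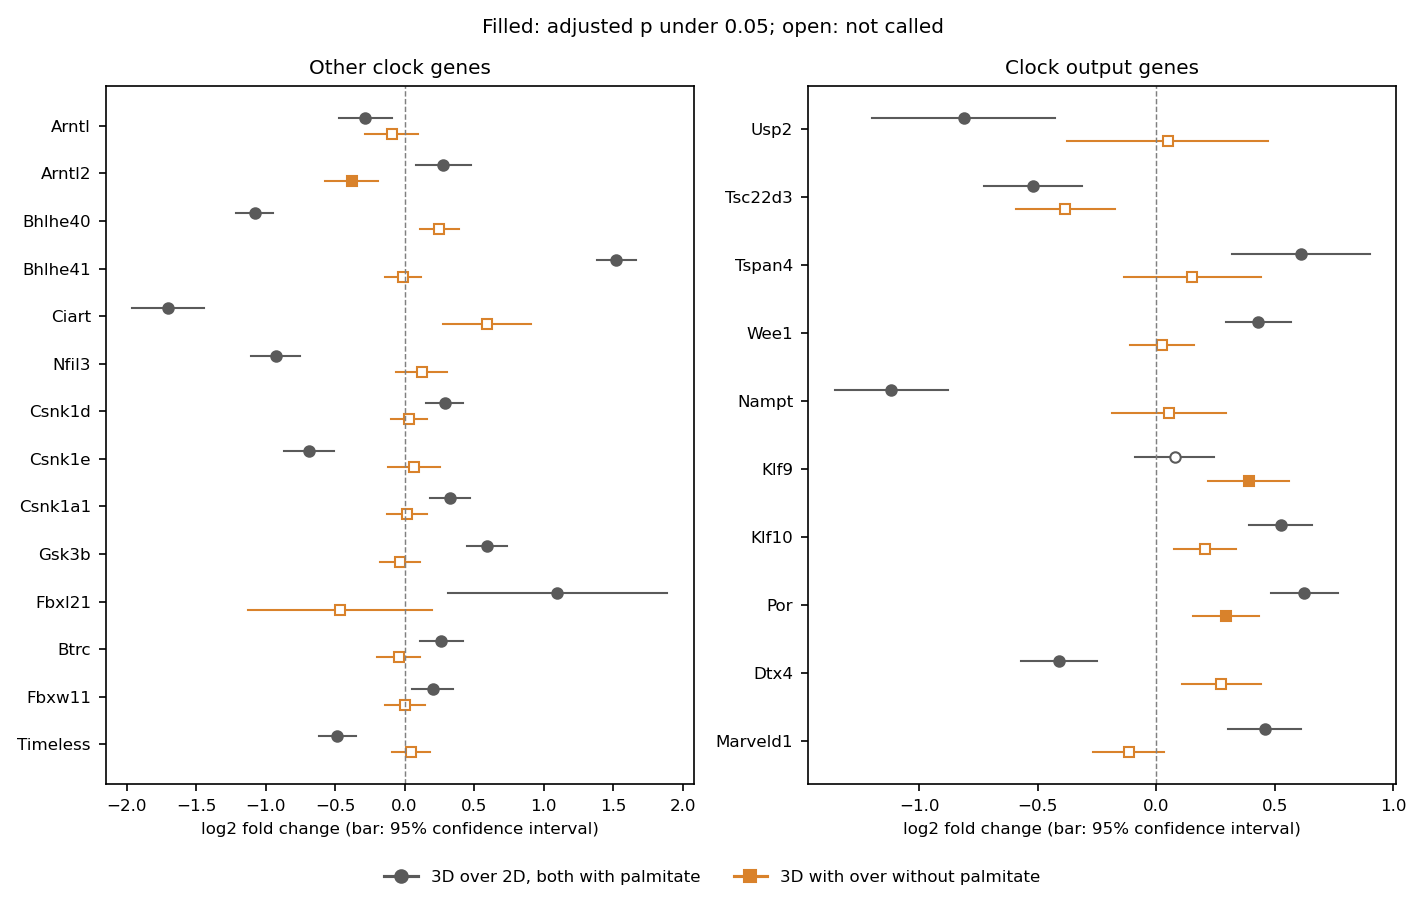
Log2 fold changes from edgeR with 95% confidence intervals of other clock genes (left) and 10 clock output genes (right), with circles for 3D over 2D culture with extra palmitate, squares for 3D culture with over without extra palmitate, and filled symbols for an adjusted p under 0.05. The circles range from −1.70 for Ciart to 1.52 for Bhlhe41, and 3 squares are filled, Arntl2 at −0.38, Klf9 at 0.39 and Por at 0.29.

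The genes whose pattern over the 9 libraries was most like that of Per3, the member with the largest change between culture forms, were Gm20554, Kazald1 and Bcam. Likeness was measured as the root mean square distance of log2 CPM after centring each gene on its own mean, and these distances were 0.0837, 0.0956 and 0.109. For Dbp, the member with the largest palmitate difference in size, the nearest were Il20rb, Slc25a53 and Cml1, at 0.142, 0.156 and 0.172.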

How the data were processed

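The RNA was extracted with TRIzol and libraries were made with a stranded poly(A) kit. The authors cleaned 50 bp single-end reads with fastq-mcf, used FastQC 0.11.9 for quality control and HISAT2 2.1.0 for alignment to GRCm38, and deposited raw read counts per gene from HTSeq-count. The annotation release and the strand setting were not given in the sources used here.

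Libraries were grouped by their labels. Genes were filtered with filterByExpr by condition, scaled by TMM and fitted in edgeR 4.0.16 (R 4.3.3) with condition as the only term over all 9 libraries, and called at a Benjamini-Hochberg adjusted p under 0.05 over 12575 genes. The SE was taken as the absolute log2 fold change over the root of the F statistic. CPM used TMM-scaled library sizes. Alternatives were RLE or library-size scaling, no filter, at least 10 counts in every library, only the conditions compared, a block for the replicate number, DESeq2 1.42.0, offsets that remove GC content and length trends per library (splines with 4 degrees of freedom), and each library left out. The procedure was tested on simulated data with few changed genes and no GC trend, so that test does not cover the GC differences between these libraries.

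The members and gene lists were chosen with earlier results of these data known. All members are described, along with listed clock and output genes called in either comparison (some genes of the lists are counted but not reported here by name), genes whose exons overlap a member's, and, for the member with the largest log2 fold change in size in each comparison, the 3 genes of most alike pattern. Same-condition libraries differed beyond sampling noise (chi-square per gene 3.90 to 19.7), so all were counted. Counts of members were lowest for Dbp, with 17 reads in the smallest library.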

Additional observations from a re-analysis of the deposited data

How the results depend on the processing

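Between 3D and 2D culture with extra palmitate, 164 of 170 member values over 17 other fits kept their direction and their side of the threshold. Nr1d1 ran from −0.2556 to 0.0099 with a library left out, reversed without replicate 3 of 3D culture with palmitate, and Nr1d2 reversed to −0.0526 without the GC and length trend, uncalled. With palmitate in 3D culture 149 of 170 did. Values near 0 reversed there, all uncalled. With a library left out Per1 ran from −0.1452 to 0.0633 (above 0 without replicate 2 of 3D culture or replicate 2 or 3 with palmitate), Nr1d1 from −0.0493 to 0.2164 (below 0 without replicate 1 with palmitate) and Clock from −0.1625 to 0.0742 (above 0 without replicate 3 of 3D culture or replicate 1 with palmitate). Clock was 0.0312 without the GC and length trend.

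The count of members called with palmitate, 1, was 0 with only the conditions compared, 2 with RLE and with DESeq2, and 3 with no filter and without the GC and length trend, and 0 to 3 with a library left out (3 without replicate 3 of 3D culture with palmitate, the smallest library, and 0 without replicate 2). For other clock genes, 1, it was 2 with no filter, 0 with only the conditions compared, 3 with DESeq2 and without the GC and length trend, and 0 to 3 with a library left out. For outputs, 2, it was 1 with library-size scaling, 0 with only the conditions compared, 5 without the GC and length trend, and 0 to 5 with a library left out. Over all genes, 275 (2.19%) were called with palmitate, 617 (3.33%) with no filter, 77 (0.629%) with only the conditions compared and 111 (0.883%) with the block. Without the GC and length trend 920 (7.59%) were called, with RLE 2.06%, with library-size scaling 1.81% and with DESeq2 3.37%. With a library left out 71 to 1901 (0.559% to 14.9%) were called, 1901 being without the smallest library. The share higher was 62.9% of the 275 calls, against 46.7% with library-size scaling and 52.7% with no filter. The cause of these changes between fits was not tested.

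Same-numbered libraries of different conditions were not more alike than differently numbered ones (correlation of deviations −0.24 to 0.15 against −0.17 to 0.28). Whether the libraries were paired cannot be told from so few correlations. With the replicate number as a block, 1 member, 0 other clock genes and 0 output genes were called with palmitate, against 0.883% of all genes tested. Dbp had the fewest reads of the members, 17 to 115 per library; whether depth widened its intervals was not tested.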
